A study of Mus musculus with 8 samples.

Results

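The 9 genes described here, Cers3, Elovl1, Elovl4, Pnpla1, Ugcg, Abca12, Alox12b, Aloxe3 and Smpd1, act in the making, packing and processing of the ceramides of the epidermal barrier. They were chosen by name from the 22740 protein-coding genes of the count table, and all 9 were listed and measured in every one of the 8 libraries. RNA of whole skin was sequenced from female BALB/c mice aged 6 to 8 weeks, with 2 libraries in each of 4 groups, and every mouse was kept on a low-fibre diet. In the baseline CTL group mice received vehicle and no allergen. Mice of the baseline butyrate group drank sodium butyrate at 400 mM and were likewise not exposed to allergen. Mice of the lesional CTL group received vehicle and 4 epicutaneous exposures to 15 µg of house dust mite (HDM) extract over 2 weeks. Mice of the lesional butyrate group had the same exposures and drank 400 mM butyrate from 2 weeks before them. HDM was applied on shaved skin under a dressing, and the sources used here do not say whether the baseline skin of these libraries was shaved and dressed too. The leading number of the sample titles differs between exposed and unexposed mice, and what it stands for is not given in the sources used here.

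The outermost layer of the skin owes its tightness to sheets of ceramides, cholesterol and free fatty acids between the dead keratinocytes. Epidermal ceramides carry acyl chains of unusual length, and in acylceramides the end of that chain is esterified with linoleic acid. Acylceramides are glucosylated, packed into lamellar bodies, secreted by granular keratinocytes, oxidized by lipoxygenases and in part bound to the proteins of the cornified envelope. Inherited loss of CERS3, PNPLA1, ABCA12, ALOX12B or ALOXE3 causes ichthyosis in humans.

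The 250 bases before the RefSeq start site on GRCm38.p6 are shown for 4 of the genes, since these fell on opposite sides in the baseline library that stood apart from the others (described next). Elovl1 and Abca12 were low in that library, whereas Cers3 and Pnpla1 were not. The choice was made after their values were seen. The windows are chr4:118427843-118428092 on the plus strand for Elovl1, chr1:71414911-71415160 on the minus strand for Abca12, chr7:66743254-66743503 on the plus strand for Cers3 and chr17:28858161-28858410 on the plus strand for Pnpla1. All 4 lie outside the annotated gene, directly before its first exon. Capitals mark the GC box GGGCGG and the CCAAT box, each on either strand.
Elovl1: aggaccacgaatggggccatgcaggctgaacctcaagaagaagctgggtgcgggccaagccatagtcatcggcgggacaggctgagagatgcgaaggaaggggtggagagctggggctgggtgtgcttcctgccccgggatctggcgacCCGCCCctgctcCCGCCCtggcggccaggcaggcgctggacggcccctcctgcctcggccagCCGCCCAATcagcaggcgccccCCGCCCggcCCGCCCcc
Abca12: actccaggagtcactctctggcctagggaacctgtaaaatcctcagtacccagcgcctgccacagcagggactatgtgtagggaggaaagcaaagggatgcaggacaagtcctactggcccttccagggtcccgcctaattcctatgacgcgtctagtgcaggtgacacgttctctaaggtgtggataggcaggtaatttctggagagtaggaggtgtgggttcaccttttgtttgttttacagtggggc
Cers3: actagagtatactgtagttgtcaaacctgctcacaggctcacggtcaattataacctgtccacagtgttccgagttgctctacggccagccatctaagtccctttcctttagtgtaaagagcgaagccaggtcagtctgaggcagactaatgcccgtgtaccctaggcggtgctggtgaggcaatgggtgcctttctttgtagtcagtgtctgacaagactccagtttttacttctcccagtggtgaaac
Pnpla1: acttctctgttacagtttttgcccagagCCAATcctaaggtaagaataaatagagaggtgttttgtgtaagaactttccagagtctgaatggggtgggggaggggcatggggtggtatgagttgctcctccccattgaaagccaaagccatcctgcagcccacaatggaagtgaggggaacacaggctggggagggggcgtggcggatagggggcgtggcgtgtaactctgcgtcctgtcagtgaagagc
RefSeq start sites were found for 8 of the 9 genes, in 9 windows, as Elovl1 has a pair of them. GGGCGG occurred in 6 of the 9 windows, those of Elovl1, Ugcg, Smpd1, Elovl4 and Alox12b, and in 32.7% of the 32851 windows of this length in the genome. The windows of Abca12, Cers3 and Pnpla1 did not hold it, so the GC box did not separate the genes that were low in that library from those that were not. CCAAT occurred in 3 of the 9 windows, of Elovl1, Smpd1 and Pnpla1, and in 33.8% of all windows, and in the Elovl1 window it overlapped a GC box. The AP-1 motif TGANTCA was in 0 of the 9 windows and in 6.75% of all windows.

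Library totals were between 18004136 and 21085544 counts, and the 9 genes had between 261 and 48064 counts in a library. One library stood apart. In baseline butyrate replicate 3 the 11 markers of hair shaft and inner root sheath summed to 20184.5 CPM (counts scaled to library size by TMM), against 8.79 to 16.4 CPM in the other 7 libraries, in which 0 to 2 of these markers were at 0. Its 9 suprabasal keratinocyte markers with a count, among them Krt1 and Krt10, summed to 3412 CPM, against 12776 to 13768 CPM in the other baseline libraries. The sum does not speak for each marker. Over both baseline butyrate mice against baseline CTL mice, 7 of these 9 had a log2 fold change below 0 and 2 above. Of 14198 genes with at least 1 CPM, 26.5% differed over 2-fold between the baseline butyrate mice, whereas 1.43% to 4.81% did so in the other groups. Comparisons of the 9 genes between groups that use this library are therefore also described without it, as are their correlations. Levels per kilobase, ratios between genes, most values of the wider pathway and the genes most like the 9 are given only with it. The part of hair follicle content in the results was not tested. Basal keratinocyte markers summed to 8081 to 13551.5 CPM over the 8 libraries. Between the lowest and the highest library, sebaceous gland markers summed to 3966 to 8300 CPM, fibroblast markers to 3228 to 8257 CPM and adipocyte markers to 1287 to 2203 CPM.

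**Figure D1:**
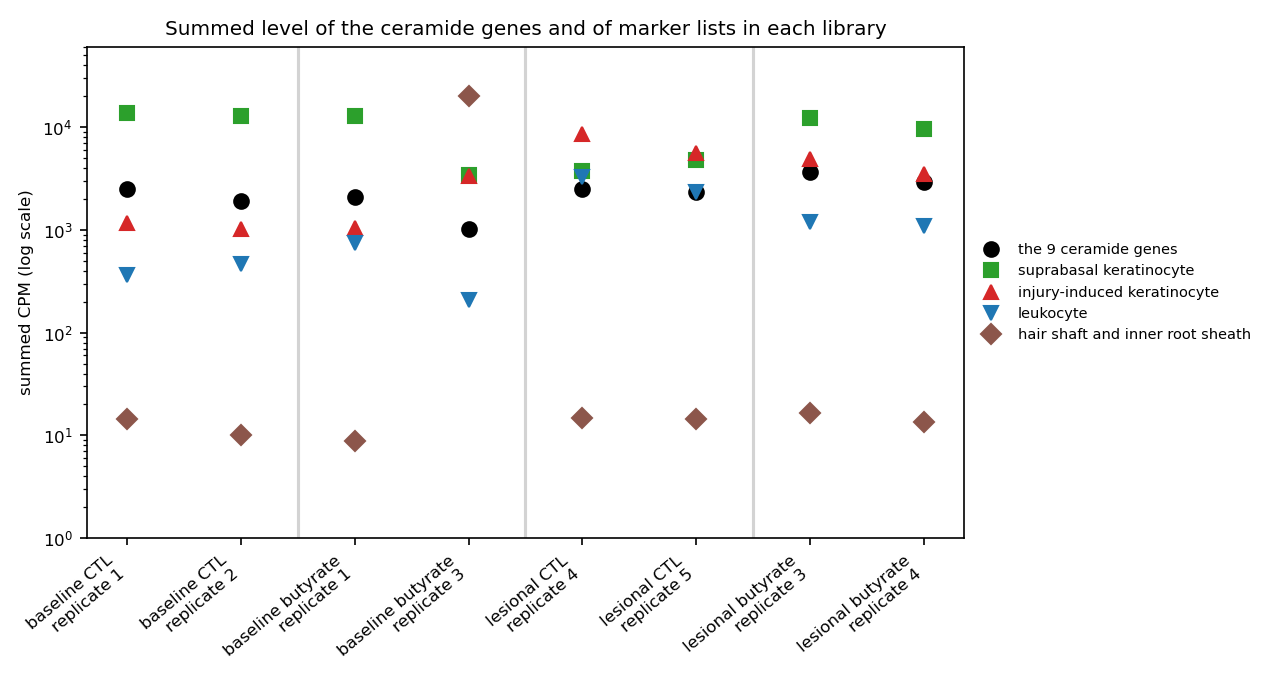
Summed CPM on a log axis (vertical) in each of the 8 libraries (horizontal) for the 9 ceramide genes and for 4 marker lists. Hair shaft and inner root sheath markers reached 20184.5 CPM in baseline butyrate replicate 3 and 8.79 to 16.4 CPM elsewhere, and suprabasal markers were lower in lesional CTL skin (3700 and 4734 CPM) than in lesional butyrate skin (12279 and 9487 CPM).

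The levels of the genes were compared per kilobase of exon, as RPKM, since their transcripts differ in length. Elovl4 was the most abundant of the 9 genes in all 8 libraries, at 155 to 758 RPKM, and Elovl1 was next at 44.5 to 148 RPKM. In each group the ranges of these elongases did not overlap each other or those of the other genes. The remaining 7 genes lay between 3.37 and 39.2 RPKM. In baseline CTL skin their order by mean was Alox12b (30.3 RPKM), Smpd1 (25.5), Aloxe3 (16.8), Ugcg (16.0), Cers3 (15.7), Abca12 (12.7) and Pnpla1 (7.12), where the neighbours from Aloxe3 to Abca12 overlapped in range. In lesional CTL skin the order was Ugcg (29.8 RPKM), Cers3 (21.6), Smpd1 (20.3), Alox12b (16.6), Abca12 (11.6), Pnpla1 (8.99) and Aloxe3 (6.70), and only Cers3 and Smpd1 overlapped among these neighbours. Aloxe3 thus stood in the fifth place of the 9 in baseline CTL skin and in the last in lesional CTL skin, and Ugcg in the sixth and the third. In lesional butyrate skin Alox12b, at 30.6 RPKM, was again in the third place and Aloxe3, at 11.8 RPKM, in the last, but the ranges of neighbours among these 7 genes all overlapped there.

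Among the enzymes that build the ceramide backbone with its long chain, ELOVL1 elongates saturated acyl chains and ELOVL4 extends them to the ultra-long range. Elovl1 (ENSMUSG00000006390, chr4:118428093-118432953) was at 327 and 299 CPM in baseline CTL skin and at 314 and 121 CPM in baseline butyrate skin. It was at 177 and 193 CPM in lesional CTL skin and at 403 and 270.2 CPM in lesional butyrate skin. Both lesional CTL mice were thus below every other mouse but baseline butyrate replicate 3, and both lesional butyrate mice were above them. Elovl4 (ENSMUSG00000032262, chr9:83778692-83806277) was at 1501 and 1035 CPM in baseline CTL skin, 1136 and 469.5 CPM in baseline butyrate skin, 1740.4 and 1551 CPM in lesional CTL skin and 2294 and 2047 CPM in lesional butyrate skin. The 4 lesional mice lay above the 4 baseline mice, so the elongases differed in pattern. CERS3 joins the long acyl chain to the sphingoid base. Cers3 (ENSMUSG00000030510, chr7:66743504-66823691) was at 56.2 and 46.1 CPM in baseline CTL skin, 53.7 and 66.5 CPM in baseline butyrate skin, 75.9 and 64.5 CPM in lesional CTL skin and 106 and 63.8 CPM in lesional butyrate skin. Lesional CTL mice were above baseline CTL mice, and the lesional butyrate pair spanned them. The end of Elovl1 overlaps Cdc20 on the other strand.

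PNPLA1 transfers linoleic acid onto the chain end and so completes the acylceramide. Pnpla1 (ENSMUSG00000043286, chr17:28858411-28890309) was at 37.6 and 31.4 CPM in baseline CTL skin, 33.5 and 57.7 CPM in baseline butyrate skin, 43.9 and 43.1 CPM in lesional CTL skin and 74.5 and 44.2 CPM in lesional butyrate skin. It was lowest in the 3 baseline libraries other than butyrate replicate 3. Its start overlaps the antisense gene Pnpla1os.

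UGCG glucosylates ceramide, and ABCA12 loads glucosylceramide into lamellar bodies. Ugcg (ENSMUSG00000028381, chr4:59189257-59222833) was at 90.5 and 76.8 CPM in baseline CTL skin, 87.2 and 96.2 CPM in baseline butyrate skin, 161 and 149.6 CPM in lesional CTL skin and 169 and 117 CPM in lesional butyrate skin. All 4 lesional mice lay above all 4 baseline mice, with or without butyrate. Abca12 (ENSMUSG00000050296, chr1:71242276-71414910) was at 220.3 and 157 CPM in baseline CTL skin, 200.3 and 90.4 CPM in baseline butyrate skin, 172 CPM in both lesional CTL libraries and 324 and 211 CPM in lesional butyrate skin. Lesional CTL mice lay within the baseline CTL range, and lesional butyrate mice above the lesional CTL mice.

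The lipoxygenase ALOX12B and the epoxyalcohol synthase ALOXE3 act in turn on the linoleate of the acylceramide. Their genes lie 7.87 kb apart on the same strand of chromosome 11. Alox12b (ENSMUSG00000032807, chr11:69156989-69169792) was at 81.7 and 65.4 CPM in baseline CTL skin, 62.2 and 12.4 CPM in baseline butyrate skin, 35.8 and 45.0 CPM in lesional CTL skin and 95.3 and 53.6 CPM in lesional butyrate skin. Aloxe3 (ENSMUSG00000020892, chr11:69125896-69149115) was at 119 and 95.3 CPM, 92.6 and 21.5 CPM, 39.8 and 45.9 CPM, and 101 and 50.0 CPM in the same order. For both genes, lesional CTL mice were below baseline CTL mice and lesional butyrate mice above lesional CTL mice, and baseline butyrate replicate 3 had the lowest value of the 8. For Aloxe3 the second lesional butyrate mouse, at 50.0 CPM, was close to the higher lesional CTL mouse at 45.9 CPM.

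SMPD1, the acid sphingomyelinase, releases ceramides from sphingomyelin. Smpd1 (ENSMUSG00000037049, chr7:105554360-105558389) was at 86.7 and 83.2 CPM in baseline CTL skin, 86.2 and 90.9 CPM in baseline butyrate skin, 67.8 and 67.7 CPM in lesional CTL skin and 111 and 90.9 CPM in lesional butyrate skin. The largest fold between mice of a group was 1.22 for Smpd1, the smallest such value of the 9 genes, whereas it was 5.01 for Alox12b. Lesional CTL mice had the lowest values of the 8.

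**Figure D2:**
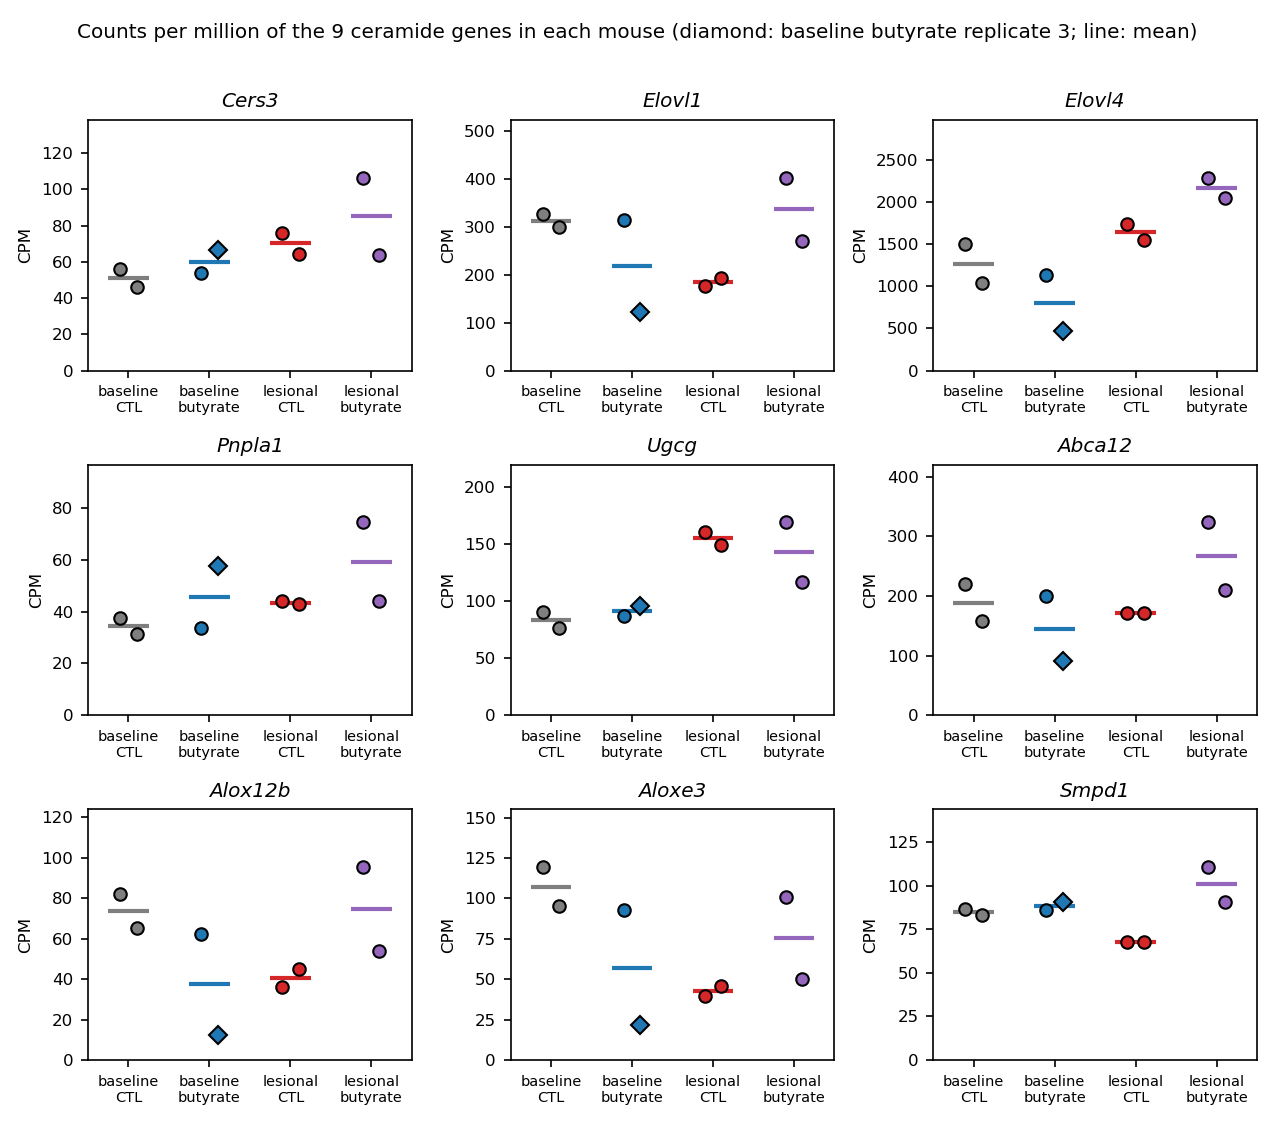
CPM (vertical, from 0) of each of the 9 genes in the 8 mice, by group (horizontal), where each point is a library and each line a group mean of n = 2. The diamond, baseline butyrate replicate 3, is the lowest point for Elovl1, Elovl4, Abca12, Alox12b and Aloxe3, and Ugcg is higher in the 4 lesional mice (117 to 169 CPM) than in the 4 baseline mice (76.8 to 96.2 CPM).

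The comparison of lesional with baseline skin in CTL mice asked how the genes differed with allergen exposure in the absence of butyrate. Ugcg was 1.86-fold higher in lesional skin (log2 fold change 0.89, SE 0.20), Cers3, Elovl4 and Pnpla1 had log2 fold changes of 0.46, 0.38 and 0.34, and Aloxe3, Alox12b, Elovl1 and Smpd1 had log2 fold changes of -1.32, -0.86, -0.76 and -0.33. In edgeR's quasi-likelihood test none of the 9 genes passed both an FDR below 0.1 and a fold-change above 2, where 3.58% of the 15163 genes tested did, and 1 of 9 had an unadjusted p below 0.05 (19.7% of all genes). Ugcg passed the FDR alone (0.0927), as did 4.83% of all genes. Values of CTL mice did not overlap between the skin states for 8 of the 9 genes: 4 were higher (36.7% of all genes) and 4 lower (38.5%). The median log2 fold change was -0.13 over the 9 genes and -0.02 over all genes tested. Limma-voom and DESeq2 also called 0 of the 9 genes (3.81% and 7.21% of all genes), with 2 at an unadjusted p below 0.05 in each (19.9% and 22.1%). In bulk skin, fewer cells of a type and less RNA per cell cannot be told apart.

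The spread in this fit comes from all 4 groups, and that between the baseline butyrate mice was large. Without baseline butyrate replicate 3, which is not in this comparison, nearly the same log2 fold changes came with smaller errors. Aloxe3 then passed both thresholds (log2 fold change -1.32, SE 0.32, FDR 0.0319), as did 6.12% of all genes in the lower direction. Elovl1 (FDR 0.0353), Alox12b (0.0717), Smpd1 (0.0820) and Ugcg (0.0211) passed the FDR but not the fold. Hence 5 of the 9 genes passed the FDR, 1 higher (18.8% of all genes) and 4 lower (19.8%). Aloxe3 was also called without baseline butyrate replicate 1 (FDR 0.0318, with 6.04% of all genes called lower), which likewise removes the spread between those mice, and in a fit of only the 4 CTL libraries (FDR 0.0020, with 12.9% of all genes called). Suprabasal markers summed to 13768 and 12840 CPM in baseline CTL skin and to 3700 and 4734 CPM in lesional CTL skin, and injury-induced keratins to 1167 and 1018 CPM against 8548 and 5585 CPM. The suprabasal list was split, with 6 of the 9 markers tested below 0 in log2 fold change and 3 above (median -1.16). Leukocyte markers summed to 364 and 461 CPM against 3271 and 2306 CPM, and skeletal muscle markers to 32286 to 42119 CPM against 14538 to 21224 CPM. Their part in the result was not tested.

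The comparison of butyrate with CTL in lesional skin asked whether the genes differed with treatment after HDM. Log2 fold changes were 0.88 for Alox12b, 0.86 for Elovl1, 0.81 for Aloxe3, 0.63 for Abca12, 0.57 for Smpd1, 0.45 for Pnpla1, 0.40 for Elovl4, 0.28 for Cers3 and -0.12 for Ugcg. The median of the 9 was 0.57, beside -0.0053 over all genes, and 8 of 9 were above 0 (49.1% of all genes). In 7 of the 9 genes both butyrate mice lay above both CTL mice, which held for 22.4% of all genes, and in none below (22.5%). Exceptions were Cers3 and Ugcg, whose groups overlapped, and those of Pnpla1 were only just apart (44.2 against 43.9 CPM). No gene of the 9 was called by edgeR, where 0% of all genes were, nor by limma-voom (0.0066%) or DESeq2 (0.818%). Smpd1 alone had an unadjusted p below 0.05 with each tool, at 1.49-fold (log2 SE 0.14, FDR 0.737 in edgeR), and 4.84% of all genes had one in edgeR, 5.16% in limma-voom and 5.46% in DESeq2. For 1 gene, 2 mice a group leave an exact permutation test no p smaller than 0.333.

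When baseline butyrate replicate 3, which is not in this comparison either, was left out, 5 of the 9 genes were higher with butyrate at an unadjusted p below 0.05 in edgeR, against 7.54% of all genes. They were Smpd1 (FDR 0.101), Elovl1 (0.128), Alox12b (0.242), Abca12 (0.306) and Aloxe3 (0.322), and 0 of 9 passed the FDR while 2.03% of all genes did. The intervals remained wide. For Alox12b the 95% interval of the log2 fold change ran from -0.79 to 2.55 with all libraries and from 0.18 to 1.58 without that library. Lesional butyrate replicate 3 had the higher value of its pair in all 9 genes. Without it the log2 fold change was 0.22 for Aloxe3, 0.41 for Alox12b, 0.29 for Abca12, -0.41 for Ugcg, 0.02 for Pnpla1, -0.14 for Cers3, 0.31 for Elovl4, 0.42 for Smpd1 and 0.55 for Elovl1. In this library fibroblast markers summed to 3228 CPM, against 8257 CPM in the other lesional butyrate mouse and 6095 and 6751 CPM in lesional CTL skin, and skeletal muscle markers to 11720 CPM, against 21484 CPM and 14538 and 21224 CPM. Suprabasal markers were also higher with butyrate, at 12279 and 9487 CPM against 3700 and 4734 CPM, and 9 of 9 tested had a log2 fold change above 0 (median 1.10). Injury-induced keratins summed to 4859 and 3494 CPM with butyrate and leukocyte markers to 1196 and 1088 CPM, both below the values of lesional CTL mice given above. Their part in the result was not tested.

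**Figure D3:**
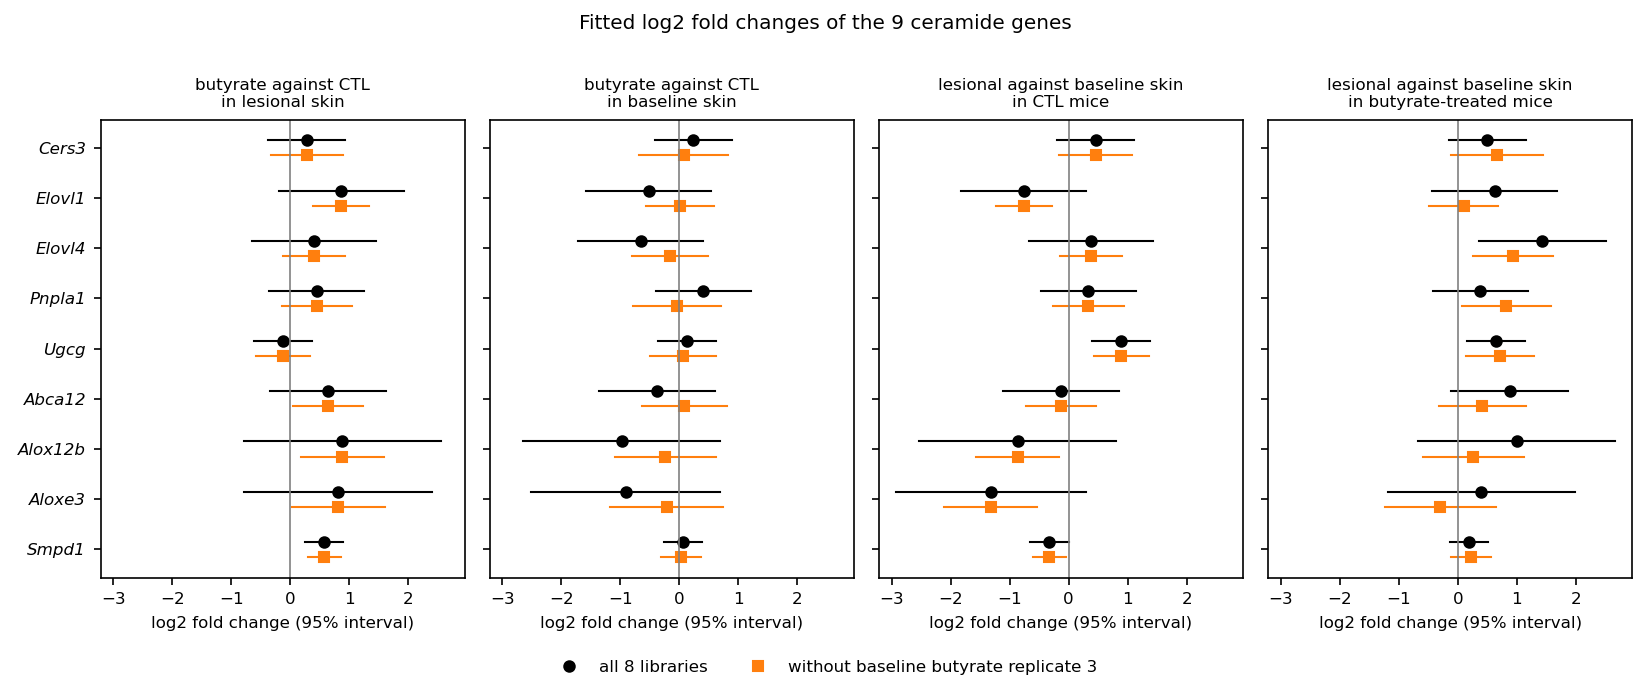
Log2 fold changes (horizontal) with 95% intervals of the 9 genes (vertical) in 4 comparisons, fitted with edgeR on all 8 libraries (black) and without baseline butyrate replicate 3 (orange). In lesional skin 8 of 9 genes lie above 0 with butyrate, and there and in CTL mice the intervals of all 9 genes are narrower without that library. In the other comparisons, which use it, those of Cers3, Ugcg and Smpd1 are wider without it.

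In baseline skin, where butyrate was given without allergen, the pair of mice disagreed. Relative to the mean of the other 3 baseline libraries, baseline butyrate replicate 3 had 0.178 times the CPM of Alox12b, 0.210 of Aloxe3, 0.384 of Elovl4, 0.387 of Elovl1 and 0.469 of Abca12. The same library had 1.07 times the CPM of Smpd1, 1.13 of Ugcg, 1.28 of Cers3 and 1.69 of Pnpla1. The genes were therefore not lowered in common there. Over both mice Alox12b and Aloxe3 had log2 fold changes of -0.98 (SE 0.69) and -0.91 (SE 0.66) and were the 2 of 9 genes whose groups did not overlap, both lower (15.9% of all genes). The median of the 9 was -0.38, beside 0.0012 over all genes. EdgeR called 0 of 9 genes (0% of all genes), 0 of 9 had an unadjusted p below 0.05 (3.49% of all genes), and limma-voom and DESeq2 gave 0 for both (called, 0% and 0.383% of all genes, and at that p 2.88% and 5.28%). In the fit without this library the log2 fold changes of the 9 genes lay between -0.24 (Alox12b) and 0.09 (Abca12), with 0 of 9 at an unadjusted p below 0.05 (2.25% of all genes), and those of Elovl1, Pnpla1 and Abca12 changed sign. Without baseline butyrate replicate 1, so with the divergent mouse alone, Alox12b, Aloxe3, Elovl4, Elovl1 and Abca12 were called lower, as were 14.7% of all genes.

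In butyrate-treated mice, lesional skin was above baseline skin in all 9 genes (log2 fold change above 0 in 44.6% of all genes), with a median of 0.63 beside -0.04. Elovl4 was 2.70-fold higher (log2 fold change 1.43, SE 0.44, FDR 0.289) and Ugcg 1.56-fold (0.64, SE 0.20, FDR 0.295). These and Abca12 were the 3 of 9 genes that did not overlap between the skin states, all higher (15.7% of all genes). EdgeR called 0 of 9 genes, against 0.35% of all genes, with 2 at an unadjusted p below 0.05 (13.1%). Limma-voom called 0 (0.277% of all genes) with 2 at that p (12.9%), whereas DESeq2 called Elovl4 (FDR 0.0237, with 4.6% of all genes called) with 3 at that p (15.1%). If baseline butyrate replicate 3 was left out the log2 fold change was 0.93 for Elovl4 (FDR 0.099), 0.71 for Ugcg, 0.82 for Pnpla1, 0.66 for Cers3 and 0.42 for Abca12, and it was near 0 for Elovl1 (0.10). That of Aloxe3 turned to -0.30. In the order baseline replicates 1 and 3 against lesional replicates 3 and 4, suprabasal markers summed to 12776 and 3412 CPM against 12279 and 9487 CPM, and injury-induced keratins to 1039 and 3332 CPM against 4859 and 3494 CPM. Of the 9 suprabasal markers tested, 7 had a log2 fold change above 0 and 2 below. Leukocyte markers summed to 738 and 205 CPM against 1196 and 1088 CPM, and skeletal muscle markers to 38470 and 9003 CPM against 11720 and 21484 CPM. Their part in the result was not tested. Butyrate-treated and CTL mice had no library in common, and in both the lesional level of Elovl4 and Ugcg was above the baseline level. For Elovl4 in CTL mice the values only just parted, at 1551 against 1501 CPM (log2 fold change 0.38, SE 0.44). The share of all genes higher in both was not computed. In both, the leading number of the sample titles also differed between lesional and baseline mice.

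Whether the effect of butyrate differed with skin state was tested as an interaction, lesional minus baseline. It was above 0 in 8 of 9 genes (46.7% of all genes), with a median of 1.01 on the log2 scale beside -0.04. Smpd1 had the 1 unadjusted p below 0.05 in edgeR (0.51, SE 0.19, FDR 0.840), and 4.64% of all genes had one below 0.05. The value was 1.86 (SE 0.98) for Alox12b, 1.73 (SE 0.93) for Aloxe3 and 1.39 (SE 0.62) for Elovl1. EdgeR called 0 of 9 genes and 0% of all genes. Limma-voom called 0 (0% of all genes) with 1 at an unadjusted p below 0.05 (4.75%), and DESeq2 0 (0.244%) with 3 (6.21%). With baseline butyrate replicate 3 left out the values were 1.12 for Alox12b, 1.03 for Aloxe3, 0.86 for Elovl1 and 0.55 for Smpd1. Of these, Alox12b, Elovl1 and Smpd1 were the 3 of 9 with an unadjusted p below 0.05 (8.81% of all genes). Aloxe3 was not among them. That fit leaves 1 library in the baseline butyrate group.

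Ratios within a library do not depend on its scaling. The level of Alox12b per kilobase was 1.80 and 1.81 times that of Aloxe3 in baseline CTL skin and 1.77 and 1.52 times in baseline butyrate skin. In lesional skin it was 2.37 and 2.58 times with CTL and 2.49 and 2.82 times with butyrate. The 4 lesional mice were thus all above the 4 baseline mice, although the level of each gene spanned a wide range in both. Elovl4 over Elovl1 behaved alike, at 4.14 and 3.12, 3.26 and 3.49, 8.87 and 7.25, and 5.13 and 6.82 in the same order of groups. Of the 36 pairs of the 9 genes, 7 had such ratios that did not overlap between the 4 lesional and the 4 baseline libraries. Besides the pairs above these were Elovl4 over Abca12, Aloxe3 and Smpd1, all higher in lesional skin, Elovl1 over Abca12, which was lower, and Ugcg over Smpd1, which was higher. An exact two-sided permutation test gave p = 0.0286 for each, the smallest that 4 against 4 libraries allow, and 0.147 after adjustment over the 36 pairs, so none passed. The pattern was chosen after the values were seen. Pairs that share a gene are not independent, and the share of all pairs of genes in the data with such ratios was not computed. For Elovl4 over Aloxe3 the highest baseline ratio was 46.1 and the lowest lesional ratio 48.2.

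**Figure D4:**
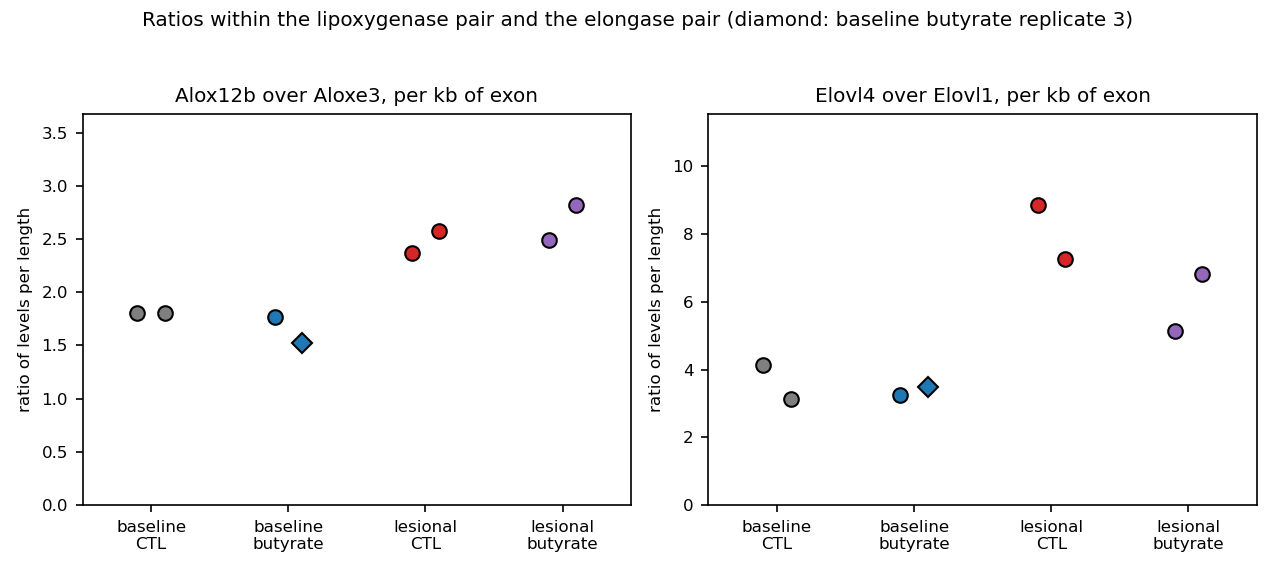
Ratio of levels per kilobase of exon (vertical, from 0) of Alox12b over Aloxe3 and of Elovl4 over Elovl1 in each library, by group (horizontal). The 4 lesional libraries lie at 2.37 to 2.82 and 5.13 to 8.87, above the 4 baseline libraries at 1.52 to 1.81 and 3.12 to 4.14.

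Across the 8 libraries some of the genes varied together. For each gene the one nearest to it by Pearson's r of log2 CPM, which is given as a description over libraries that share groups and one divergent mouse, was Elovl1 for Alox12b (r = 0.96) and for Aloxe3 (0.95), Alox12b for Elovl1 (0.96) and for Abca12 (0.90), Abca12 for Elovl4 (0.89), Pnpla1 for Cers3 (0.91), Cers3 for Pnpla1 (0.91) and for Ugcg (0.85), and Pnpla1 for Smpd1 (0.51). Other pairs ranged widely, with r = -0.33 for Aloxe3 and Pnpla1, 0.41 for Abca12 and Cers3 and 0.60 for Elovl4 and Ugcg. Without baseline butyrate replicate 3, over 7 libraries, Alox12b and Elovl1 still had r = 0.96 and Cers3 and Pnpla1 0.97. Elovl4 then had r = 0.88 to Pnpla1 and 0.02 to Elovl1. Abca12 had 0.84 to Smpd1, 0.80 to Pnpla1 and 0.72 both to Cers3 and to Alox12b, and Smpd1 was then nearest to Elovl1 (0.93). Among 14189 other genes with at least 1 CPM, those most like the mean standardized profile of the 9 over 8 libraries were Desi1 (r = 0.986), Gm9790 (0.973), Srpk1 (0.968), Psapl1 (0.964) and Smap2 (0.962).

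**Figure D5:**
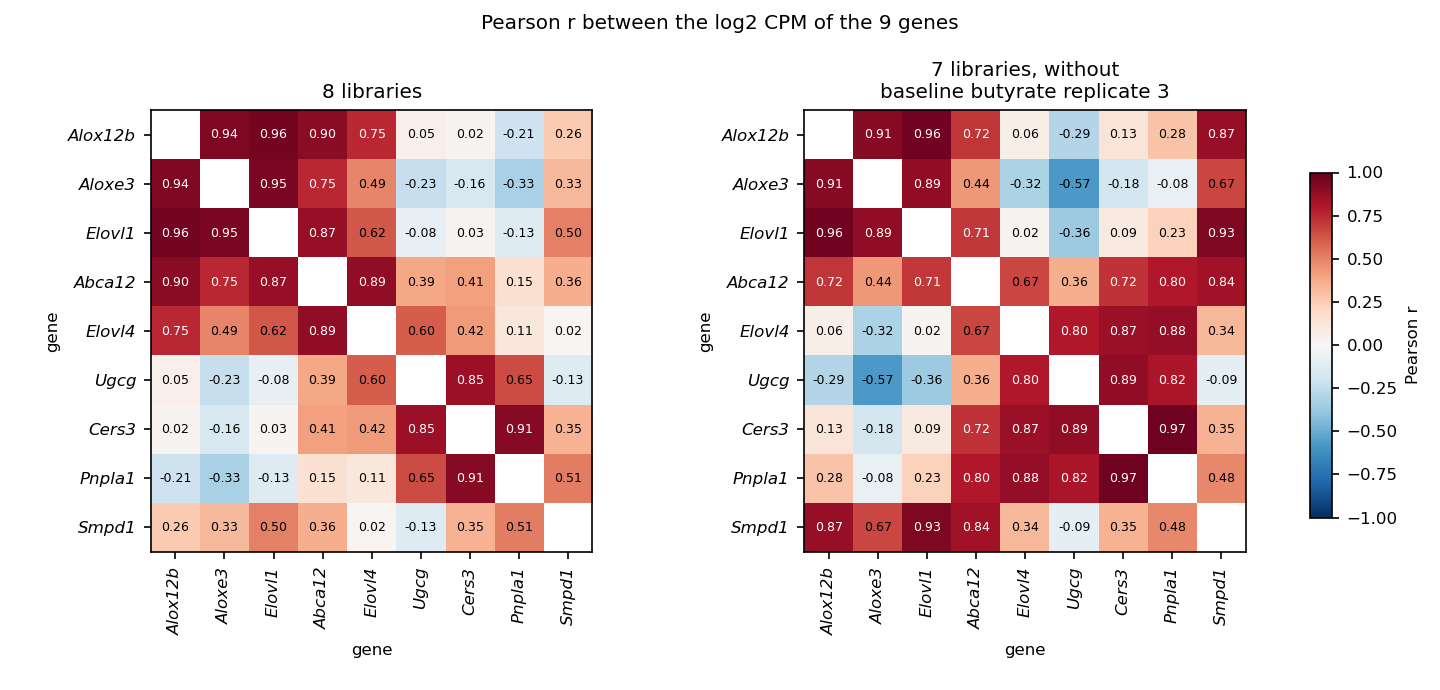
Pearson r (colour and number) between the log2 CPM of each pair of the 9 genes (both axes) over 8 libraries on the left and over 7, without baseline butyrate replicate 3, on the right. Alox12b, Aloxe3 and Elovl1 form one block (0.94 to 0.96 on the left) and Cers3 and Pnpla1 another (0.91). Elovl4 has r = 0.75 to Alox12b and 0.11 to Pnpla1 on the left, and 0.06 and 0.88 on the right.

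The wider pathway was described with 50 further genes of sphingolipid and fatty acyl metabolism, 47 of which were tested. In lesional against baseline skin of CTL mice 1 of the 47 was called, against 3.58% of all genes. It was Degs2, whose enzyme adds a hydroxyl group to dihydroceramide. It was at 3.22 and 1.78 CPM in baseline CTL skin and at 14.6 and 12.7 CPM in lesional CTL skin (log2 fold change 2.44, SE 0.41, FDR 0.0493 in edgeR). In butyrate-treated mice it was at 1.52 and 2.38 CPM against 17.1 and 10.9 CPM, with a log2 fold change of 2.83 and an FDR of 0.103. Degs2 was therefore higher in all 4 lesional mice than in all 4 baseline mice. In butyrate-treated mice DESeq2 called Degs2 (4.6% of all genes). So did edgeR with upper quartile factors, without normalization factors or without the filter on low counts (0.331% to 0.547% of all genes). Limma-voom, DESeq2 size factors and the fit of only the 4 libraries compared did not. The call in CTL mice was lost when any one of the 6 libraries outside the baseline butyrate group was left out. Without either baseline CTL library every other gene lost its call too, so there the loss was not particular to Degs2. Without baseline butyrate replicate 3, Elovl7, Elovl3 and B3galt2 were called beside it, so 4 of the 47, against 12.5% of all genes.

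The 2 highest and 2 lowest of the 47 genes were named in each comparison. In CTL mice Elovl7, an elongase, had a log2 fold change of 1.20 (SE 0.37) in lesional against baseline skin, while those of Acer1, an alkaline ceramidase of the epidermis, and B3galt2 were -0.89 and -1.19. In butyrate-treated mice Elovl3, an elongase of the sebaceous gland and among its markers here, had 1.62 (SE 0.29), and those of Acer3 and Hacd1 were -0.81 and -1.11. Without baseline butyrate replicate 3 the values were 1.56 for Elovl3 and -1.64 for Hacd1. Both then passed the call, as did Degs2 and Elovl7, with 1 library left in the baseline butyrate group. With butyrate in lesional skin Elovl6, which elongates palmitate, and B3galt2 had 1.05 each (SE 0.37 and 0.39), and Hacd4 and Hacd1, dehydratases of the elongation cycle listed under their older symbols Ptplad2 and Ptpla, -0.52 and -0.65. In baseline skin Acer3 and Tgm1, the transglutaminase of the cornified envelope, had 0.59 and 0.43, and Cers4 and Fa2h, which hydroxylates fatty acids, -0.73 and -0.92. In the interaction Sptlc3 and Elovl6 had 1.43 and 1.41, and Sptlc2 and Hacd4 -0.56 and -0.80. None of these passed the call with all 8 libraries, but in the fit without baseline butyrate replicate 3 Elovl6 (FDR 0.0933) and B3galt2 (FDR 0.0575) were called higher with butyrate in lesional skin, as 2 of the 47, against 1.22% of all genes called in either direction. The median of the 47 was 0.17 for butyrate in lesional skin, -0.25 in baseline skin, -0.01 for lesional against baseline skin in CTL mice and 0.41 in butyrate-treated mice, and 35, 9, 23 and 37 of 47 were above 0, beside 49.1%, 50.2%, 48.7% and 44.6% of all genes.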

How the data were processed

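RNA of skin was sequenced in 8 libraries, 2 in each of 4 groups, with 18004136 to 21085544 counts each. Groups and replicate numbers were taken from the sample labels, where vehicle is CTL and atopic dermatitis is lesional skin. The treatment label reads SCFA, which was taken as sodium butyrate from the study's own description. The authors aligned the TruSeq reads to GRCm38 (STAR 2.5.2, run by RNASik) and assigned them to genes by featureCounts. The deposited values are raw counts of protein-coding genes, not normalized. The counts are described as reverse-stranded by the deposited table; whether the kit kept strand is not given in the sources used here, so reads of overlapping genes on opposite strands may be shared. Values were matched by gene symbol or identifier, and coordinates and exon lengths came from GENCODE vM21 on the same build.

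All values were computed from these counts: CPM from TMM-scaled library sizes, RPKM as CPM per kilobase of merged exons, and log2 CPM for correlations with a prior count of 2. In R 4.3.3, edgeR 4.0.16 (robust quasi-likelihood test) was fitted to all 8 libraries with 1 mean per group, after filterByExpr at a minimum count of 10, which left 15163 genes and all 9 members, with 4 residual degrees of freedom and a common biological coefficient of variation of 0.276. A call needed an FDR (Benjamini-Hochberg, over all genes) below 0.1 and a fold-change above 2, as in the study. As alternatives DESeq2 1.42.0 and voom of limma 3.58.1 were run, with other normalizations and filters, fits of only the 4 libraries compared, no minimum fold and fits leaving out each library. The fitting code was tested on simulated data. Promoter windows came from RefSeq on GRCm38.p6.

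Nothing states that the libraries of a group are separate cages or litters, so p-values measure only the spread between these samples. The members and lists were chosen with earlier results of these data known. Of the pathway list, every called gene and, per comparison, the 2 highest and 2 lowest of at least 1 CPM were named, with the 5 genes most like the mean profile of the 9.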

Additional observations from a re-analysis of the deposited data

Results flagged for a closer look

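The effect of butyrate on Alox12b and Aloxe3 pointed in opposite directions in the 2 skin states. Both butyrate mice lay below both CTL mice in baseline skin and above them in lesional skin. The difference between the effects, lesional minus baseline, was 1.86 on the log2 scale for Alox12b and 1.73 for Aloxe3 (FDR 0.840 in edgeR for each), so the test of the difference itself was not passed. Replicate 3 of the baseline butyrate group, the library with hair follicle markers at 20184.5 CPM, had the lowest value of both genes. The other mouse of that group was at 62.2 CPM for Alox12b and 92.6 CPM for Aloxe3. The lower baseline CTL mouse was at 65.4 and 95.3 CPM. Without replicate 3 the log2 fold change in baseline skin was -0.24 for Alox12b and -0.21 for Aloxe3, instead of -0.98 and -0.91. The difference was then 1.12 for Alox12b and 1.03 for Aloxe3. With 2 libraries in a group, single libraries were not tested as outliers.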

How the results depend on the processing

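No paired analysis was made, since the sample labels name no pairs of mice between groups. Among 16 alternatives, called members were 0 in every comparison by DESeq2 size factors, upper quartile factors, limma-voom and without the filter on low counts. Called members in lesional against baseline skin of CTL mice became 1 without normalization factors (Ugcg, log2 fold change 1.02), 1 in the fit of only the 4 libraries compared (Aloxe3) and 1 at an FDR below 0.1 with no minimum fold (Ugcg), and called pathway genes, 1 in the report, became 2, 4 and 3 in the same order and 4 by DESeq2. In butyrate-treated mice DESeq2 called 1 member and 4 pathway genes, where the report has 0, and called pathway genes became 2 without normalization factors and 1 with upper quartile factors or without the filter. Without normalization factors the interaction of Cers3 (-0.041) and Pnpla1 (-0.054), near 0 in the report, turned sign.

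Leaving out each library in turn, called members ranged from 0 to 1 in lesional against baseline skin of CTL mice, from 0 to 5 in that of butyrate-treated mice, from 0 to 5 for butyrate in baseline skin and from 0 to 5 in the interaction. The 5 arose without baseline butyrate replicate 1, which leaves the divergent mouse alone and assumes that it varies like the other groups. Called pathway genes ranged from 0 to 5, from 0 to 19, from 0 to 11 and from 0 to 18 in the same order, and from 0 to 2 for butyrate in lesional skin. Log2 fold changes that turned sign ranged from -0.14 to 0.60 for Cers3 and from -0.41 to 0.13 for Ugcg with butyrate in lesional skin. With butyrate in baseline skin they ranged from -1.37 to 0.0072 for Elovl1, from -1.07 to 0.085 for Abca12 and from -0.039 to 0.74 for Pnpla1. In lesional against baseline skin they ranged from -0.36 to 0.13 for Abca12 in CTL mice and, in butyrate-treated mice, from -0.30 to 1.81 for Aloxe3 and from -0.043 to 0.82 for Pnpla1. In the interaction they ranged from -0.37 to 0.37 for Cers3 and from -0.38 to 0.49 for Pnpla1. Over all genes, calls in lesional against baseline skin were 543 in CTL mice and 53 in butyrate-treated mice in the report, 1093 and 698 by DESeq2, 1936 and 2990 without baseline butyrate replicate 1, and 1911 and 912 without baseline butyrate replicate 3. For butyrate in lesional skin, in baseline skin and in the interaction they were 0 in the report, 124, 58 and 37 by DESeq2, 191, 3777 and 3275 without baseline butyrate replicate 1, and 187, 0 and 0 without baseline butyrate replicate 3. The cause was not tested, except that leaving out either of these libraries removes the spread between them by construction. Each group has 2 mice, and the part of depth in these comparisons was not tested.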
